A study of Rattus norvegicus with 17 samples.

Results

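The genes described here encode enzymes, transporters and carriers that burn fatty acids in mitochondria and peroxisomes or handle the ketone bodies made from them. They were chosen by name: 36 gene symbols were looked up in the annotation of the array, and 35 of them had a probe, out of 13278 gene symbols on the array. The other one, Ehhadh, was not analysed here. Of the 35 genes, 21 act in mitochondria, 9 in peroxisomes and 5 in neither by this grouping (4 acyl-CoA synthetases and the cytosolic thioesterase Acot1). Crat and Eci2 are found in both organelles and were counted as mitochondrial. Where a gene had more than 1 probe the probe with the highest mean stood for it, which was needed for Crat alone.

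RNA from 4 adipose tissue and 3 liver samples of hyperglycaemic GK rats was set against RNA from 5 adipose tissue and 5 liver samples of normoglycaemic BN rats, on Illumina RatRef-12 expression arrays. Goto-Kakizaki (GK) rats were bred from Wistar rats by repeated selection for poor glucose tolerance and stay lean. Brown Norway (BN) rats are another inbred strain, not the stock that GK came from, and were the comparison strain. All animals were untreated males of 7 months from the Oxford colonies (GK/Ox and BN/Ox), fed standard chow, so that diabetes and every other genetic difference between the strains cannot be told apart. The study's methods give 4 rats per strain, while the arrays used here come from 5 BN rats, and liver and adipose tissue of the same rat can be paired by sample name for 3 GK and all 5 BN rats.

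Fatty acids are activated to acyl-CoA by acyl-CoA synthetases. Long chains enter mitochondria through the carnitine shuttle and are shortened there in a cycle of dehydrogenation, hydration, a further dehydrogenation and thiolysis, with electrons passed on through the electron transfer flavoprotein. Peroxisomes shorten very long, branched and bile acid side chains by a related set of enzymes and hand the products to mitochondria as carnitine esters. In the fasting liver much of the acetyl-CoA becomes ketone bodies, and many genes of both organelles are targets of the nuclear receptor PPAR alpha, while white adipose tissue mainly stores and releases fatty acids.

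All values below are on a log2 scale (joint variance stabilization over the 17 arrays), on which a difference is the log2 of the fold change for a bright signal. The scale is steeper than log2 of the signal for dim probes, so folds of dim probes are given as lower bounds on this scale or beside another normalization. A probe was taken as above background on an array when its detection score was over 0.99. Between 7315 and 8237 probes of the 22226 were above background on an adipose tissue array and between 8004 and 9747 on a liver array, and a gene's value on an array rested on 18 to 78 beads. Strains were compared in each tissue with limma, p-values were adjusted over all 22226 probes by the Benjamini-Hochberg method, and a gene was called changed at an adjusted p below 0.05. In tissue RNA, fewer cells of a type and less RNA per cell cannot be told apart.

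The array labelled GK liver replicate 2 stood apart and went against its label. All 11 kidney tubule markers measured were above background on it, against 1 to 3 on each of the other liver arrays, with the tubule protein Umod at 14.60 against 5.09 or lower on every other liver array. The liver urea cycle enzyme Cps1 was not above background on it (5.09), while the other 2 GK livers had 12.96 and 13.56 and the BN livers 13.84 to 14.52. The remaining 8 of the 9 hepatocyte markers measured were above background on it, but their list had a median of 8.93, against 14.93 to 15.58 on the other livers. Its median correlation with the BN liver arrays over all probes was 0.86, against 0.93 and 0.96 for the other 2 GK livers. Liver results are therefore given without it (2 GK against 5 BN arrays) and with it (3 against 5). In adipose tissue, GK replicate 2 carried a strong skeletal muscle signal (Acta1 14.54, list median 10.45, with 7 of 9 muscle markers above background). Muscle markers were also above background on the BN adipose tissue arrays, 1 to 7 of 9, with list medians of 3.93 to 7.79. In addition, GK replicate 1 had 6 of 9 hepatocyte markers above background (Ttr 8.77), against 1 to 3 on the BN adipose arrays. The fat cell hormone Adipoq was between 12.62 and 12.92 on the GK and between 12.85 and 13.30 on the BN adipose tissue arrays.

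**Figure D1:**
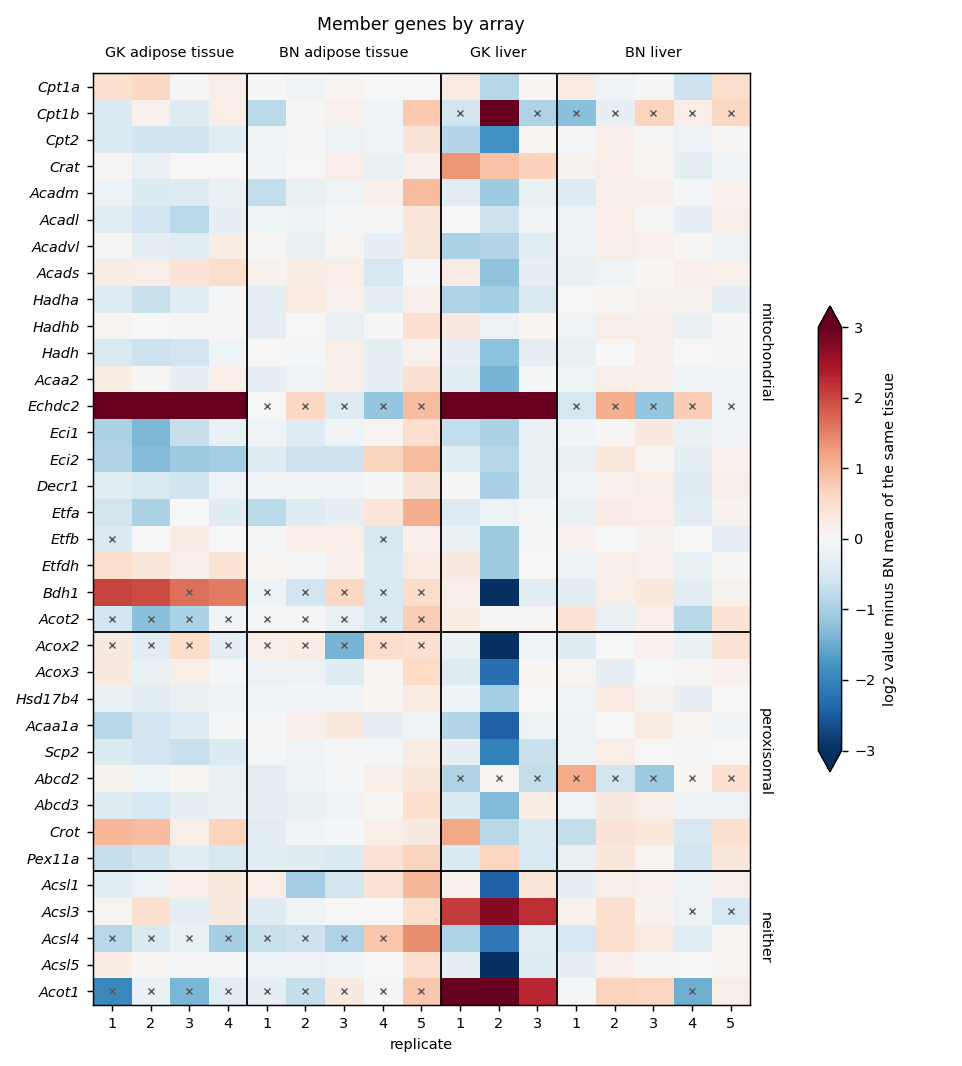
Values of the 35 fatty acid oxidation and ketone body genes (rows, by compartment) on the 17 arrays (columns), as the log2 value minus the BN mean of the same tissue, with colours cut at 3 either way and crosses where the probe was not above background. Echdc2 is far above the BN mean on every GK array, Acsl3 and Acot1 are above it on the GK liver arrays, and GK liver replicate 2 is below it for most genes.

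Few of these genes were called changed between GK and BN rats. With this few arrays, a gene that was not called was not thereby shown to be equal in the strains. In adipose tissue 2 of the 35 were called higher in GK (Echdc2 and Bdh1) and 0 lower. Of all probes, 1.03% were called higher there and 1.62% lower. In liver without replicate 2 again 2 of the 35 were called higher (Echdc2 and Acsl3) and 0 lower. Of all probes, 0.522% were called higher in that fit and 0.688% lower. With replicate 2 the same 2 genes were called higher in liver and 0 lower, against 0.274% and 0.405% of all probes. The only gene called in both tissues was Echdc2. The smallest adjusted p among the genes not called was 0.110 in adipose tissue (Scp2) and 0.0867 in liver without replicate 2 (Acot1).

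Echdc2, which encodes a mitochondrial protein named for its enoyl-CoA hydratase domain, was present in every GK sample and at background in every BN sample. In adipose tissue the values were 9.92, 10.01, 9.71 and 9.78 in GK rats, against 2.33, 2.95, 1.96, 1.17 and 3.26 in BN rats. In liver they were 10.99, 11.20 and 11.41 in GK samples (11.20 on the kidney-like array), against 1.47, 3.10, 0.84, 2.74 and 1.88 in BN rats. No GK value came near a BN value in either tissue, and none of the 10 BN arrays was above background. Before normalization the signal was 701 to 1175 units in GK and 98.2 to 109.6 units in BN adipose tissue, and 1819 to 4847 units in GK and 108.5 to 143.2 units in BN liver. The difference was 7.52 ± 0.38 (SE) in adipose tissue (limma, adjusted p = 5.75e-06) and 9.19 ± 0.59 in liver without replicate 2 (adjusted p = 0.000977). Since the BN probe was at background, the folds are lower bounds on the joint variance stabilization scale. On that scale the signal was at least 22.9-fold higher in GK adipose tissue and at least 70.6-fold higher in GK liver. With replicate 2 the liver bound was 70.7-fold (adjusted p = 0.000163). Under neqc, a background correction that compresses dim probes, the differences were 2.31 in adipose tissue and 3.43 in liver without replicate 2. These are smaller than the bounds, which hold for the joint variance stabilization alone.

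GK and BN samples shared a slide in 3 adipose tissue pairs and 2 liver pairs, and the difference was of like size in each of them. Within a slide Echdc2 was higher in GK by 7.59, 6.77 and 7.82 in adipose tissue and by 8.10 and 10.57 in liver. The difference did not itself differ between the tissues beyond the spread (liver minus adipose tissue 1.67 ± 0.71, adjusted p = 0.304). In liver 1 of the 2 within-slide pairs is the kidney-like array. The liver call was lost with the slide as a fixed block (9.34, adjusted p = 0.8004 with all 3 GK arrays). None of the 22226 probes was called in that fit, so it cannot tell which genes keep a call.

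**Figure D2:**
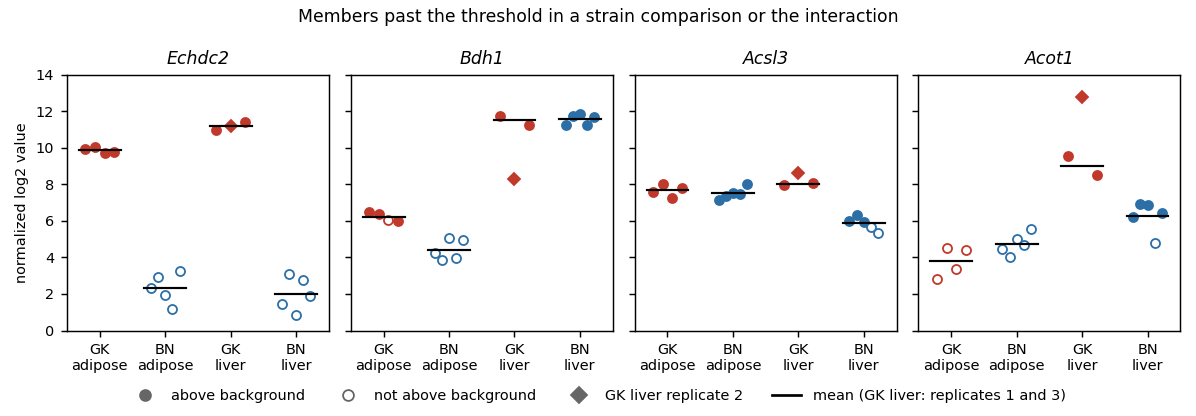
Values of Echdc2, Bdh1, Acsl3 and Acot1 on every array (log2 value, points), with GK left of BN in each tissue, group means as lines (GK liver: replicates 1 and 3), open points for probes not above background and a diamond for the kidney-like GK liver array. Echdc2 separates the strains in both tissues, Bdh1 in adipose tissue, and Acsl3 and Acot1 in liver.

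Bdh1 is the mitochondrial 3-hydroxybutyrate dehydrogenase, which interconverts the ketone bodies acetoacetate and 3-hydroxybutyrate. In adipose tissue it was at 6.46, 6.38, 6.06 and 5.98 in GK rats, against 4.26, 3.85, 5.04, 3.97 and 4.97 in BN rats. The strains did not overlap, but the probe was dim: 3 of the 4 GK arrays and 0 of the 5 BN arrays were above background. The difference was 1.80 ± 0.28 (limma, adjusted p = 0.00844), and on this scale the signal was at least 1.84-fold higher in GK. The GK signal before normalization was 143.1 to 199.8 units and the BN signal 104.3 to 136.4 units. Under neqc the difference was 0.13 (adjusted p = 0.00294), less than that bound. Within slides it was 2.19, 2.21 and 0.93. Of the 9 hepatocyte markers, 6 were above background on GK replicate 1, where Bdh1 was 6.46, and 1 on each of the other GK arrays. The muscle list was at its highest on GK replicate 2, where Bdh1 was 6.38. Without GK replicate 1 the difference was 1.72 (adjusted p = 0.0351) and without GK replicate 2 it was 1.75 (adjusted p = 0.0336). The part of liver or muscle RNA in it was not tested. The call was lost with the slide as a fixed block (1.78, adjusted p = 0.236) and in 1 fit to all arrays (adjusted p = 0.107). The fixed block fit called only 5 of all probes higher and 12 lower.

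In liver Bdh1 was bright in both strains, at 11.74 and 11.24 in GK livers 1 and 3 and between 11.24 and 11.87 in the BN livers. The kidney-like array had 8.30. The difference without that array was −0.06 ± 0.29 (adjusted p = 0.943), and with it −1.13 ± 0.69 (adjusted p = 0.531).

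Acsl3, an acyl-CoA synthetase of the endoplasmic reticulum and lipid droplets, was higher in GK liver. It was at 7.97, 8.59 and 8.07 in GK livers (8.59 on the kidney-like array), against 5.995, 6.34, 5.95, 5.68 and 5.33 in BN livers, of which the last 2 were not above background. All GK values lay above all BN values. The difference was 2.16 ± 0.30 without replicate 2 (limma, adjusted p = 0.0185) and 2.35 ± 0.30 with it (adjusted p = 0.0104). Under neqc it was 0.47 and 0.51. Within the slides that held both strains it was 2.25 (the kidney-like array) and 2.11. Without replicate 2 the call was lost when BN liver 3 or 4 or GK liver 1 was also left out (adjusted p 0.0549, 0.0591 and 0.134). With all 3 GK arrays it was lost with the slide as a fixed block (adjusted p = 0.896), a fit in which no probe was called. In adipose tissue the strains overlapped, with 7.59, 7.996, 7.25 and 7.79 in GK rats and 7.14 to 8.04 in BN rats (difference 0.15 ± 0.22, adjusted p = 0.821).

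Acot1, a cytosolic thioesterase that releases fatty acids from acyl-CoA, was higher on average in GK liver but did not pass the threshold there. GK livers had 9.55, 12.75 and 8.50 (12.75 on the kidney-like array), against 6.21, 6.91, 6.89, 4.77 and 6.42 in BN livers, where 4.77 was not above background. The strains did not overlap. The difference was 2.78 ± 0.60 without replicate 2 (adjusted p = 0.0867) and 4.03 ± 0.90 with it (adjusted p = 0.114). Without replicate 2 it passed in 4 of 16 alternatives, among them the deposited values (2.75, adjusted p = 0.0181) and detected probes only (adjusted p = 0.00604). In adipose tissue no array of either strain was above background. Acot1 and its mitochondrial relative Acot2 are close copies of each other, and how far the 2 probes share signal was not tested. Acot2 itself was at 8.34 and 8.13 in GK livers 1 and 3, against 7.27 to 8.55 in BN livers (0.13, adjusted p = 0.911).

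The 4 genes above are the ones in which a strain or strain by tissue test was passed, and the 250 bases before their start are shown with the half-site that PPAR and related nuclear receptors read. The sequences are from RefSeq on the build GRCr8, each read 5′ to 3′ on the strand of its gene. Sequence differences between GK and BN in these windows were not checked. Capitals mark AGGTCA or GGGTCA, here found on the opposite strand and so printed as TGACCT or TGACCC.
Echdc2, chr5:128144636-128144885, plus strand: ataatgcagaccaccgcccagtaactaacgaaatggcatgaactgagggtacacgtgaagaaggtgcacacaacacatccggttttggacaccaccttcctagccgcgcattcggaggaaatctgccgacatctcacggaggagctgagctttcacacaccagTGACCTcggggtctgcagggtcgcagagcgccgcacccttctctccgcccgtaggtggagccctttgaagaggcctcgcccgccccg
Acsl3, chr9:87563351-87563600, plus strand: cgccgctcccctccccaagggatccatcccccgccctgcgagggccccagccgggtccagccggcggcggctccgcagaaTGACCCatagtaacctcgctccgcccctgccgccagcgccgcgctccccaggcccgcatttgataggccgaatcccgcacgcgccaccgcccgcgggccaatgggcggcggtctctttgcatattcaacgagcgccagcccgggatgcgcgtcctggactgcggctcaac
Bdh1, chr11:82842637-82842886, minus strand: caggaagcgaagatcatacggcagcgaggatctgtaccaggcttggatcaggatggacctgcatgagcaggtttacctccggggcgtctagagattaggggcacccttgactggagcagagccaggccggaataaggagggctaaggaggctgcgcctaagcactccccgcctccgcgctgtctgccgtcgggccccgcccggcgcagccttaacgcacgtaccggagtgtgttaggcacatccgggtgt
Acot1, chr6:109367024-109367273, plus strand: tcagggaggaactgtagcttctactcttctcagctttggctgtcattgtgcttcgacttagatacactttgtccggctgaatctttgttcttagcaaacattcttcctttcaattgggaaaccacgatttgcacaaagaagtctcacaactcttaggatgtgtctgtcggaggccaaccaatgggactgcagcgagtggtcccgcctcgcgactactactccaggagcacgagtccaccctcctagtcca

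The Echdc2 window holds 1 AGGTCA, which begins 87 bases before the start, and the Acsl3 window 1 GGGTCA, which begins 170 bases before it. The Bdh1 and Acot1 windows hold neither. A window was found for 31 of the 35 genes among 33469 promoters of the same length. Counted on both strands, AGGTCA stood in 5 of the 31 (16.1%) and in 14.1% of all promoters, and GGGTCA in 5 of the 31 (16.1%) and in 11.9% of all. The exact direct repeat AGGTCANAGGTCA and the looser AGGNCANAGGNCA stood in 0 of the 31, against 0.0508% and 0.368% of all promoters. These shares are close to the background for this window.

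The strain comparisons of the other genes follow by role. Among the acyl-CoA synthetases, Acsl1, the main synthetase of liver and fat, was at 14.69 and 14.93 in GK livers 1 and 3 and between 14.31 and 14.74 in BN livers. In adipose tissue Acsl1 ran between 11.72 and 12.34 in GK rats and between 11.01 and 13.04 in BN rats. Acsl5 was at 11.56 and 11.46 in GK livers, against 11.58, 12.02, 11.88, 11.86 and 11.93 in BN livers. The Acsl5 values of the 2 strains lay next to each other without overlap, with a difference of −0.35 (adjusted p = 0.550). Acsl4, which prefers arachidonate, was at 11.35 and 11.94 in GK livers, against 11.79 to 12.79 in BN livers (−0.64, adjusted p = 0.467).

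In the carnitine shuttle, Cpt1a, the liver form of the rate-limiting outer membrane transferase, was between 8.52 and 9.16 in GK and between 8.45 and 8.63 in BN adipose tissue. In liver Cpt1a was 12.87 and 12.68 in GK rats and 12.00 to 13.14 in BN rats, so the strains overlapped in both tissues. Cpt2, the inner membrane transferase, was at 11.18, 11.03, 11.01 and 11.29 in GK adipose tissue, against 11.55, 11.57, 11.45, 11.53 and 12.01 in BN adipose tissue. Every GK value of Cpt2 lay below every BN value, and the difference was −0.49 ± 0.16 (adjusted p = 0.187). Crat, which makes and splits short acylcarnitines, was at 9.80 and 9.17 in GK livers 1 and 3, against 8.58, 8.68, 8.55, 8.19 and 8.36 in BN livers. These did not overlap either (1.01 ± 0.27, adjusted p = 0.156). Cpt1b, the muscle form, was above background in adipose tissue of both strains (GK 6.43 to 7.03, BN 6.01 to 7.61).

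None of the 4 acyl-CoA dehydrogenases, which catalyse the first step of each cycle for very long, long, medium and short chains, was called in either tissue. Acadl was at 12.55, 12.32, 12.10 and 12.66 in GK adipose tissue, against 12.78, 12.74, 12.86, 12.86 and 13.27 in BN (−0.49 ± 0.18, adjusted p = 0.232). Acadvl was at 11.46 and 12.07 in GK livers 1 and 3, against 12.23, 12.58, 12.55, 12.45 and 12.27 in BN livers (−0.65 ± 0.26, adjusted p = 0.343). Both sets of values were free of overlap, with GK below. Acads ran the other way in adipose tissue, with 8.98, 8.95, 9.15 and 9.27 in GK rats and 8.24 to 8.98 in BN rats (0.34, adjusted p = 0.466). Acadm, the medium chain enzyme, was between 11.46 and 11.70 in GK and between 11.13 and 12.81 in BN adipose tissue.

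Of the later steps of the cycle, the trifunctional protein subunit Hadha was at 11.23 and 11.72 in GK livers 1 and 3, against 12.15, 12.21, 12.26, 12.26 and 11.89 in BN livers (−0.68 ± 0.24, adjusted p = 0.305). Its partner subunit Hadhb overlapped between strains in both tissues, with differences of 0.00 in adipose tissue and 0.17 in liver. Hadh, which acts on short and medium chains, was at 11.88, 11.71, 11.77 and 12.22 in GK adipose tissue, against 12.05 to 12.51 in BN (−0.45, adjusted p = 0.251). The isomerases and the reductase that prepare unsaturated chains had a median difference of −0.80 in adipose tissue, with all 3 genes below 0. Eci2 was at 8.22, 7.84, 8.04 and 8.08 in GK adipose tissue, against 8.77, 8.50, 8.51, 9.79 and 10.09 in BN (−1.09 ± 0.35, adjusted p = 0.174). Eci1 was at 11.28, 10.88, 11.55 and 12.00 in GK adipose tissue, against 11.85 to 12.74 in BN (−0.80 ± 0.26, adjusted p = 0.171). Decr1 was at 12.67, 12.56, 12.43 and 12.84 in GK and 12.88 to 13.40 in BN adipose tissue (−0.39, adjusted p = 0.327). Eci2 and Decr1 did not overlap between strains there, and Eci1 did. Of the electron carriers, Etfa (−0.46), Etfb (−0.04) and Etfdh (0.37) overlapped between strains in adipose tissue, and in liver the 3 differences lay between −0.21 and 0.14.

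None of the 9 peroxisomal genes was called between strains. Scp2, which yields a thiolase for branched chains and the sterol carrier protein 2, came closest in adipose tissue, at 11.33, 11.17, 11.08 and 11.33 in GK rats, against 11.72, 11.62, 11.71, 11.73 and 11.98 in BN rats (−0.52 ± 0.14, adjusted p = 0.110). In liver Scp2 was at 12.96 and 12.54 in GK samples 1 and 3, against 13.05 to 13.41 in BN samples (−0.45, adjusted p = 0.459). GK lay below BN without overlap in both tissues. Acaa1a, the peroxisomal thiolase, was between 11.43 and 12.20 in GK and between 11.99 and 12.54 in BN adipose tissue (−0.46, adjusted p = 0.319). Hsd17b4, the peroxisomal bifunctional enzyme, was at 12.81, 12.68, 12.78 and 12.86 in GK and 12.87 to 13.23 in BN adipose tissue (−0.23, adjusted p = 0.520). The oxidases Acox2 and Acox3, for branched chains and bile acid precursors, differed by −0.15 and −0.16 in liver.

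Crot, which exports shortened chains from peroxisomes as carnitine esters, had the highest difference of the peroxisomal genes in adipose tissue. It was at 10.78, 10.72, 9.99 and 10.47 in GK rats, against 9.46, 9.71, 9.74, 9.98 and 10.06 in BN (0.70 ± 0.21, adjusted p = 0.139). The strains overlapped by the lowest GK array. Pex11a, a peroxisome division factor induced by PPAR alpha, was at 5.88, 5.99, 6.25 and 6.11 in GK and 6.16 to 7.26 in BN adipose tissue (−0.53, adjusted p = 0.401). The transporters Abcd3 (−0.35) and Abcd2 (−0.05), which carry very long chain acyl-CoA into the organelle, overlapped between strains in adipose tissue, with Abcd3 between 10.30 and 10.62 in GK and between 10.58 and 11.32 in BN.

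Counted over all 35 genes, GK and BN adipose tissue did not overlap in 8 (22.9%), of which 2 were higher and 6 lower in GK (Cpt2, Acadl, Eci2, Decr1, Hsd17b4 and Scp2). Among all probes 8.21% did not overlap, and among the 7401 probes above background on every array of a strain 17.4%. In liver without replicate 2 the count was 10 of 35 (28.6%), with 4 higher (Acsl3, Crat, Echdc2 and Acot1) and 6 lower (Acsl5, Acadvl, Hadha, Hadh, Eci1 and Scp2), against 17.2% of all probes and 25.8% of those above background. With replicate 2 the same 10 genes did not overlap, against 9.06% of all probes and 15.7% of those above background. Lower values without overlap in GK were found in 17.1% of the 35 genes in adipose tissue and in 17.1% in liver without replicate 2, beside 9.90% and 14.8% of the probes above background.

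The median difference between GK and BN was below 0 in both compartments and both tissues. In adipose tissue the median difference was −0.11 over the 21 mitochondrial genes (7 above and 14 below 0) and −0.23 over the 9 peroxisomal genes (3 above and 6 below), beside 0.02 over all probes and 0.00 over those above background. In liver without replicate 2 it was −0.12 (6 above and 15 below) and −0.16 (1 above and 8 below), beside −0.04 over all probes and −0.09 over those above background. With replicate 2 the liver medians were −0.41 and −0.52, beside 0.00 over all probes and −0.07 over those above background. No test was run on these medians or on the difference between the compartments. Within shared slides the adipose tissue medians did not keep 1 sign, and were 0.12, −0.13 and −0.08 for mitochondrial and −0.06, 0.04 and −0.08 for peroxisomal genes. On the liver slide without the kidney-like array the medians were −0.25 and −0.24.

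**Figure D3:**
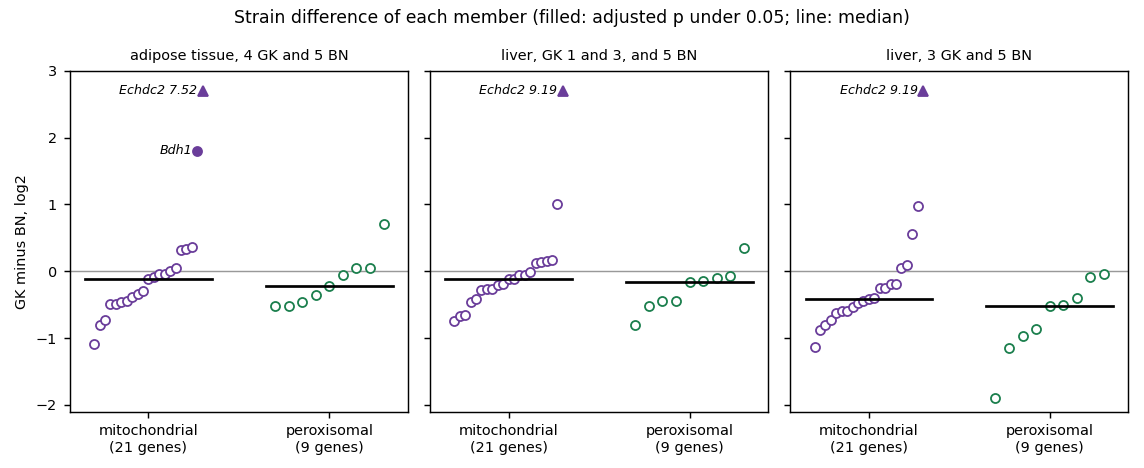
GK minus BN (log2, vertical axis) of each mitochondrial and peroxisomal gene, ordered by size, in adipose tissue, in liver without GK liver replicate 2 and in liver with it. Lines are medians, filled symbols passed the adjusted p threshold, and Echdc2 lies off the scale at its printed value. Both compartments centre just below 0 in the first 2 panels and at −0.41 and −0.52 in the last.

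The adipose tissue medians moved with single arrays, among them BN replicate 5. That array held the highest BN value for 26 of the 35 genes, and for 22 of the 28 that were above background on every BN array, while it held the highest value for 25.6% of all probes and 39.6% of those above background. Measured from the BN mean, its median was 0.39 over mitochondrial and 0.35 over peroxisomal genes, and the other 4 BN arrays ran from −0.23 to 0.08 and from −0.18 to 0.09. Without it the median strain difference was −0.01 for mitochondrial and −0.17 for peroxisomal genes, and Echdc2 and Bdh1 remained the 2 genes called. Over all fits that left out 1 array, these medians ran from −0.31 to −0.01 and from −0.30 to −0.17. On the GK arrays the mitochondrial median was −0.34, −0.30, −0.31 and 0.01 from the BN mean. The brown fat protein Ucp1 was highest on BN replicate 5, at 11.94, and was 4.99, 2.71, 10.005 and 8.41 on the other BN arrays, where 4.99 and 2.71 were not above background. GK adipose tissue had 6.12, 3.85, 3.51 and 7.60, with 3.85 and 3.51 not above background. Of the 5 brown adipocyte markers measured, 1 to 3 were above background on the arrays of each strain, and 2 on BN replicate 5. The median of these markers was 5.67 on that array. It ran from 3.81 to 6.32 over the BN arrays and from 3.51 to 6.30 over the GK arrays. Cidea was between 12.27 and 12.52 in GK and between 12.30 and 13.35 in BN. The part of brown fat cells in these differences was not tested.

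**Figure D4:**
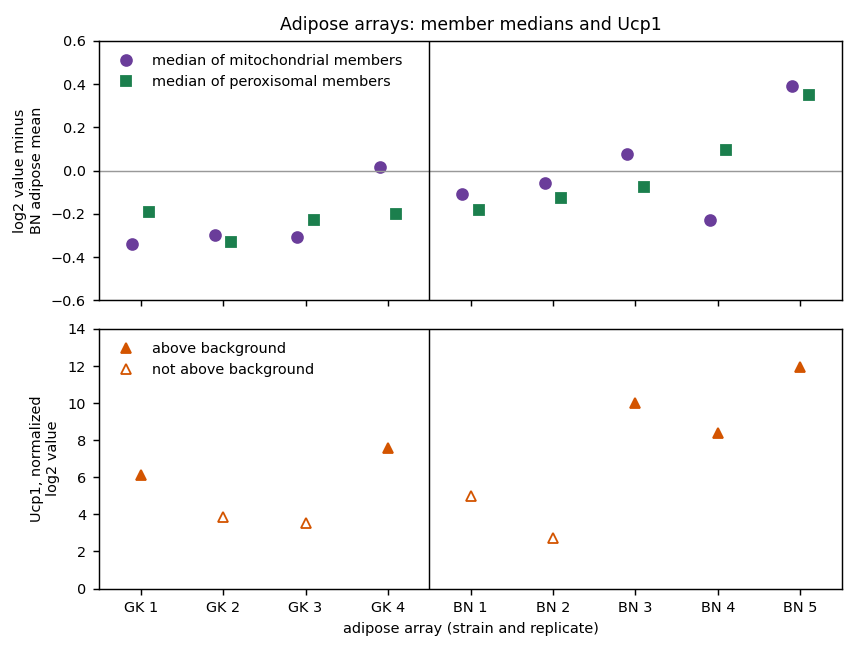
Median of the mitochondrial and of the peroxisomal genes on each adipose tissue array, as a log2 difference from the BN mean (upper panel), and Ucp1 on the same arrays as a log2 value (lower panel), GK left of BN. BN replicate 5 has the highest medians (0.39 and 0.35) and the highest Ucp1 (11.94).

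The kidney-like array moved the liver medians. Against the 5 BN livers, 25 of the 35 genes were below every BN value on it, 6 were above every BN value and 4 lay within. Of all probes, 5964 of 22226 were below and 6688 above every BN value. The lowest against the BN mean were Acox2 (−5.40), Acsl5 (−3.27), Bdh1 (−3.25), Acsl1 (−2.43) and Acaa1a (−2.42), and the highest besides Echdc2 were Acot1 (6.51) and Cpt1b (3.14). Its median was −0.95 over mitochondrial and −1.33 over peroxisomal genes, while the other 2 GK livers had −0.19 and −0.12 for mitochondrial and −0.40 and −0.16 for peroxisomal genes.

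Liver and adipose tissue differed far more than the strains did. No slide held both tissues, so tissue and slide cannot be told apart in these comparisons. In BN rats, compared within the rat, 28 of the 35 genes (80.0%) were higher in liver and 3 (8.57%) lower, where 20.8% of all probes were higher and 18.0% lower. In GK rats without replicate 2, 29 (82.9%) were higher and 2 (5.71%) lower, against 19.3% and 19.2% of all probes. The probes above background in either tissue were called higher in liver in 36.2% of cases in BN and 34.9% in GK. The 28 genes higher in BN liver were all among the 29 higher in GK liver, and Abcd2 and Cpt1b were lower in both strains. The strains' values come from different rats, but the GK fit took its estimate of the spread from GK and BN arrays together.

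By compartment, 16 of 21 mitochondrial genes were higher and 1 lower in BN liver, with a median difference of 1.42, and 8 of 9 peroxisomal genes were higher and 1 lower, with a median of 1.97. In GK rats 17 of 21 and 8 of 9 were higher, with medians of 1.51 and 2.05, and 1 of each was lower. All 4 acyl-CoA dehydrogenases, all 3 enzymes for unsaturated chains, all 3 electron carriers and all 5 peroxisomal oxidation enzymes measured were higher in liver in both strains. The mitochondrial genes not higher in liver were Cpt1b, which was lower in both strains, and Crat, Echdc2 and Hadha (0.03 in GK, 0.37 in BN), which passed in neither strain. Hadhb was higher in GK liver and did not pass in BN.

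**Figure D5:**
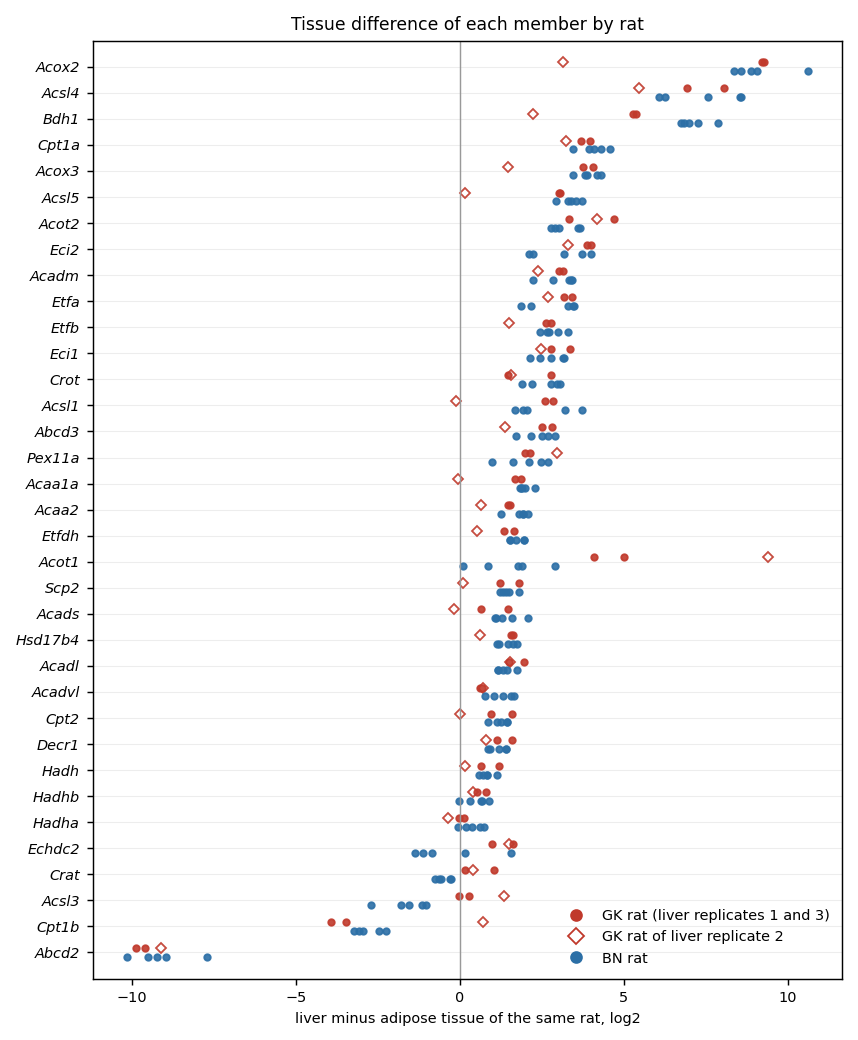
Liver minus adipose tissue (log2, horizontal axis) of each gene in each rat with both tissues, GK and BN rats by colour and an open diamond for the GK rat of the kidney-like array. Most genes lie right of 0 in every rat, Abcd2 and Cpt1b lie left of it in all 5 BN rats, and Acsl3 and Crat lie left of 0 in the 5 BN rats.

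The widest tissue differences were in genes near background in 1 of the tissues. Acox2, the oxidase of bile acid side chains, was at 12.26 and 12.35 in GK livers and 12.10 to 12.88 in BN livers, and no adipose tissue array was above background. Its signal was at least 128-fold higher in GK liver and at least 138-fold higher in BN liver. Over the alternatives its log2 difference ran from 4.48 to 9.07 in GK and from 4.46 to 9.28 in BN. Bdh1 was at least 74.2-fold higher in BN liver, and in GK rats the difference was 5.27 ± 0.33 (limma, adjusted p = 4.98e-09). Acsl4 was above background on 0 of 4 GK and 1 of 5 BN adipose tissue arrays, and its signal was at least 81.3-fold higher in GK liver. In BN rats it was at 11.79 to 12.79 in liver and, on the 1 adipose tissue array above background, at 6.28. Over the alternatives the log2 difference ran from 3.57 to 7.23 for Bdh1 in BN and from 3.80 to 7.73 for Acsl4 in GK. Cpt1a was higher in liver by 3.91 in GK and 4.07 in BN rats, with GK livers at 12.87 and 12.68 and GK adipose tissue between 8.52 and 9.16.

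Abcd2 and Cpt1b ran the other way. Abcd2, a transporter of very long chain acyl-CoA into peroxisomes, was at 11.82, 11.58, 11.77 and 11.48 in GK adipose tissue and 11.41 to 12.06 in BN adipose tissue. In liver it was not above background on any array of either strain, and the adipose tissue signal was at least 106-fold higher in GK and at least 101-fold higher in BN. Over the alternatives the log2 difference of Abcd2 (liver minus adipose tissue) ran from −10.03 to −4.50 in GK and from −9.47 to −4.46 in BN. Its relative Abcd3 was the opposite, higher in liver by 2.64 in GK and 2.39 in BN rats. Cpt1b was likewise not above background in GK livers 1 and 3 or in BN livers, and its adipose tissue signal was at least 3.43-fold higher in GK and at least 3.40-fold higher in BN. Over the alternatives its log2 difference (liver minus adipose tissue) ran from −3.54 to −0.25 in GK and from −2.93 to −0.26 in BN. Its call was kept in each, but the size of these bounds holds for the joint vsn values alone. On the kidney-like array Cpt1b was at 7.16.

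The interaction tests whether the strain difference itself differed between liver and adipose tissue, which were on different slides. Of the 3 genes that passed it, only Acsl3 was above background in adipose tissue of both strains, and in BN liver it was so on 3 of 5 arrays. The interaction, fitted without GK liver replicate 2, called 2 of the 35 higher and 1 lower, against 0.936% and 0.922% of all probes. For Acsl3 the strain difference was 2.00 ± 0.36 larger in liver than in adipose tissue (adjusted p = 0.00860). Over the alternatives this value ran from 0.41 to 2.17. In BN rats Acsl3 was lower in liver than in adipose tissue by 1.65 (−1.65 ± 0.27, adjusted p = 0.00264), while in GK rats the tissues differed by 0.35 (adjusted p = 0.385). The BN difference ran from −1.81 to −0.35 over the alternatives. For Acot1 the interaction was 3.72 ± 0.75 (adjusted p = 0.0167), with every adipose tissue array at background, so that its adipose tissue term (−0.96) compares levels that were not measured. For Bdh1 it was −1.86 ± 0.41 (adjusted p = 0.0302), with the BN adipose tissue arrays at background, and it was lost in 8 of 15 alternatives, among them neqc (−0.06, adjusted p = 0.926), quantile normalization (adjusted p = 0.0603) and 6 of the fits that left out a rat. The Acsl3 and Acot1 interactions were each lost in 1 of 15, without the rat of GK adipose tissue replicate 2 (adjusted p = 0.0542 and 0.144). Crat had 1.06 ± 0.27 (adjusted p = 0.0623). It was higher in liver by 1.03 and 0.17 in the 2 GK pairs without the kidney-like array, and lower in liver in all 5 BN rats, with differences of −0.29 to −0.77. With all arrays the interaction called Acsl3 (2.203) and Acot1 (4.98) higher and 0 genes lower, against 0.549% and 0.495% of all probes. No peroxisomal gene passed in either fit.

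Other genes of these pathways were read from a wider list, of which 70 were measured. In adipose tissue 1 of the 70 was higher in GK and 1 lower, where 1.03% of all probes were called higher and 1.62% lower. In liver without replicate 2 there were 2 and 2, against 0.522% and 0.688% of all probes. In liver with it there were 0 and 0, against 0.274% and 0.405%. Acad9, a mitochondrial acyl-CoA dehydrogenase that also helps to assemble respiratory complex I, was at 6.83, 6.81, 6.40 and 7.11 in GK adipose tissue, against 4.83 to 5.14 in BN, where no array was above background (1.87 ± 0.17, adjusted p = 0.000303). In liver Acad9 was at 6.28 and 6.73 in GK samples 1 and 3, against 4.50 to 5.32 in BN, again at background (1.64 ± 0.29, adjusted p = 0.0485). The liver call was lost in 8 of 16 alternatives, including each fit that left out an array, and under neqc the difference was 0.14.

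Cd36, the fatty acid uptake receptor, was lower in GK in both tissues. It was at 12.76, 12.37, 12.59 and 12.62 in GK adipose tissue, against 13.55 to 14.21 in BN (−1.22 ± 0.19, adjusted p = 0.00666). In liver it was at 8.70 in each of GK samples 1 and 3, against 10.09 to 10.95 in BN (−1.92 ± 0.29, adjusted p = 0.0247). The kidney-like array had 10.56, and with it the liver difference was −1.30 (adjusted p = 0.333). The call was lost in 3 of 20 alternatives in adipose tissue (slide as a fixed block, replicate block and 1 fit to all arrays) and in 7 of 16 in liver, 6 of them with an array left out. Cyp4a2, a fatty acid omega-hydroxylase, was at 12.88 and 12.77 in GK livers 1 and 3, against 14.35 to 14.78 in BN livers (−1.81 ± 0.23, adjusted p = 0.0124). Its relative Cyp4a8 was at 6.07 and 6.54 in the same GK livers and at background in every BN liver (3.65 ± 0.50, adjusted p = 0.0174), and it was at 11.20 on the kidney-like array. The Cyp4a2 and Cyp4a8 calls in liver were each lost in 3 of 16 alternatives, and under neqc the Cyp4a8 difference was 0.16. Among the 11 other peroxisomal enzymes of the list, 10 were higher in liver than in adipose tissue in each strain, and none was called between strains. Of all probes, 20.8% were higher in liver in BN and 19.3% in GK.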

How the data were processed

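RNA of adipose tissue and liver was measured on 17 arrays on 12 slides. The deposited intensity values are bead averages from the authors' scanner software on a linear scale, not normalized. The deposited detection score is a fraction that, per the file headers, gives the confidence of a probe being above the negative controls. Deposited log2 values, which the authors normalized per tissue with vsn, serve as an alternative. No aligner or build applies to these arrays, and the probe sequences were not used here, so signal shared between related genes and sequence differences between strains at a probe were not checked.

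Each array's mean negative control signal was subtracted from its intensities, and all arrays then entered 1 joint vsn fit (quantile 0.9, 7 iterations, 5 slices). This fit was programmed in Python (version 3.11.15, using numpy 2.4.6, pandas 2.3.3 and scipy 1.17.1) and tested on simulated data. Run per tissue, its values lay a median of 0.0208 and no more than 0.117 from the deposited ones. The annotation named 13650 probes. The strain comparisons, 1 for each tissue, used limma 3.58.1 (R 4.3.3), as in the study's methods. Liver and adipose tissue were compared with the rat as a fixed block in BN, and as a random block (statmod 1.5.0, correlation 0.0349) in GK and in the interaction, fits that used the arrays of both strains without GK liver replicate 2 (correlation 0.00807 with it). The Benjamini-Hochberg adjustment covered all 22226 probes, and the threshold was 0.05. A bound ("at least") sets the brighter group's mean against the dimmer group's mean of a floor taken per array. That floor is the higher of the probe's own value and the lowest value among all probes above background on that array. Each bound was taken on the joint vsn values. With 4 against 5 arrays the smallest exact permutation p is 0.0159, with 3 against 5 it is 0.0357 and with 2 against 5 it is 0.0952, so single genes were tested in the fit across all probes. The number of arrays limits the precision.

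The genes, their roles and the other lists were chosen with earlier results of these data known. Values of every array are given for genes past the threshold in a strain comparison or the interaction and for up to 3 genes per role with the largest strain difference among those above background, and other genes by ranges. Of the wider pathway list (94 genes, 70 measured), those past the threshold between strains are named. Alternatives were other normalizations (neqc, quantile with an offset of 50, the deposited values, vsn per tissue or without GK liver replicate 2), detected probes only, a trended and robust variance, slide and replicate blocks, 1 fit to all arrays, and leaving out each array. Promoters are RefSeq sequences on GRCr8. Figures were drawn with matplotlib 3.10.9.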

Additional observations from a re-analysis of the deposited data

Results flagged for a closer look

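Among the 35 genes, 6 of 105 groups of values (5.71%) held a sample whose gap to the others was above Dixon's critical value, which chance gives in about 1 in 20 groups. In 5 of the 6 the sample was BN adipose tissue replicate 5, above the other 4 BN arrays. It had 8.99 for Acsl5 (others 8.29 to 8.47), 12.01 for Cpt2 (11.45 to 11.57), 13.27 for Acadl (12.74 to 12.86), 13.40 for Decr1 (12.88 to 12.95) and 11.98 for Scp2 (11.62 to 11.73). The sixth was Acox2 on BN adipose tissue replicate 3, at 1.97 against 3.53 to 3.90 on the others, all of them not above background.

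The strain difference differed between liver and adipose tissue by the interaction test in Acsl3 (2.00, and 2.203 with GK liver replicate 2), in Acot1 (3.72, and 4.98 with that array) and in Bdh1 (−1.86). For Bdh1 the interaction with that array was −2.92 and did not pass (limma, adjusted p = 0.0870). Every adipose tissue array was at background for Acot1, and every BN adipose tissue array for Bdh1.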

How the results depend on the processing

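The strain calls were few and moved with the settings. No called difference changed sign, but the mitochondrial median in adipose tissue (−0.11) was 0.01 with the slide as a fixed block. The number of genes called in adipose tissue (2) was 5 with neqc, 4 with quantile normalization, 4 with the deposited values, 4 with vsn fitted per tissue, 7 among detected probes only, 6 with a trended and robust variance, and 1 each with the slide as a fixed block, with a replicate block and in 1 fit to all arrays. The genes added were Cpt2, Crot, Scp2, Acadl, Eci1 and Eci2. Calls over all probes moved too, from 229 higher and 359 lower in the main fit to 563 and 460 with neqc. They were 517 and 473 with quantile normalization, 487 and 613 with the deposited values, and 477 and 598 with vsn per tissue. Among the 7401 detected probes they were 546 and 640, and with a trended and robust variance 504 and 667. With the slide as a fixed block they were 5 and 12. With a replicate block they were 59 and 125, and in 1 fit to all arrays 144 and 263. In liver with all 3 GK arrays the number of genes called (2) was 4 among detected probes, 4 in 1 fit to all arrays, 0 with the slide as a fixed block and 0 with a replicate block. Without replicate 2 (2) it was 4 among detected probes, 4 in 1 fit to all arrays and 0 with a replicate block. The genes added in these 2 liver settings were Acot1 and Crat. Over all probes with all 3 GK arrays, 61 were called higher and 90 lower in the main fit. The counts were 307 and 377 in 1 fit to all arrays, and 143 and 202 among 8078 detected probes. Without replicate 2 they were 116 and 153, 307 and 432, and among 8205 detected probes 337 and 454. In the liver fits with a slide as a fixed block or a replicate block no probe was called. Acadvl also passed in liver under neqc, with and without replicate 2, and under quantile normalization with all 3 GK arrays. Without replicate 2, Acot1 passed with the deposited values and with vsn fitted per tissue, and Crat with a trended and robust variance. Models with the slide as a block could not be fitted without replicate 2 and were not run. The interaction with all arrays called 4 genes with quantile normalization and 4 among detected probes (main count 2). Over all probes it called 122 higher and 110 lower, 235 and 271 with quantile normalization, and 174 and 207 of 9106 detected probes.

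Leaving out 1 array at a time gave 2 to 2 genes in adipose tissue, 2 to 2 in liver with all 3 GK arrays, 1 to 2 without replicate 2, 30 to 31 between BN tissues and 29 to 32 between GK tissues. For the interaction without replicate 2 leaving out 1 rat gave 0 to 3, with 0 when the rat of GK adipose tissue replicate 2 and GK liver replicate 1 was left out. That fit called 82 of all probes higher and 69 lower, against 208 and 205 in the main fit. Of the medians, the liver medians with all 3 GK arrays moved: the mitochondrial one (−0.41) was −0.074 with neqc, −0.074 with quantile normalization, −0.70 with the slide as a fixed block and −0.57 to −0.12 with 1 array left out, and the peroxisomal one (−0.52) was −0.22, −0.22, −0.98 and −0.87 to −0.16. With 1 array left out the peroxisomal median without replicate 2 (−0.16) ran from −0.40 to −0.14 and the mitochondrial one from −0.21 to −0.08. In adipose tissue the medians ran from −0.31 to −0.01 (mitochondrial) and from −0.30 to −0.17 (peroxisomal).

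GK and BN samples share replicate numbers, but they come from different rats. The deviations of same-numbered samples correlated between −0.07 and 0.07 in adipose tissue and between 0.02 and 0.08 in liver. Same-numbered samples of the strains shared a slide for replicates 2 and 3 in liver and for replicate 1 in adipose tissue. The replicate block fits thus pair samples by number and in part by slide. Under the replicate block Echdc2 was called in adipose tissue and not in liver (adjusted p = 0.132, and 0.279 without replicate 2), where no probe was called. Signal over background limits Acot1, Acad9, Cyp4a8, Bdh1, Acsl3 and Echdc2, whose differences shrink under neqc. Under neqc the strain differences of Echdc2 in both tissues and of Bdh1 in adipose tissue were less than their bounds. The tissue differences of Cpt1b, Abcd2, Acox2, Bdh1 and Acsl4 also shrank among the alternatives, to less than their bounds.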
